A study of Mus musculus with 11 samples.

Results

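The hepatic stellate cells (HSCs) described here were all cells of the HSC isolation made after 6 weeks of carbon tetrachloride (CCl4), set against all cells of the same isolation from uninjured liver. A cell was kept if it held at least 300 genes and at most 30% of its transcript counts on mitochondrially encoded genes, which left 5454 of 5454 barcodes at 6 weeks and 6850 of 6852 in uninjured liver. These are 2 of the 5 droplet libraries of the series, whose kept cells come to 30999 in all. The study examined how the mesenchyme of mouse liver is organised and how it responds to fibrotic injury. Its mice were adult males on a C57BL/6 background that carried the Pdgfrb-BAC-eGFP reporter, which marks mesenchymal cells by the promoter of the PDGF receptor beta gene. The injured mice received repeated intraperitoneal CCl4 in olive oil, and the uninjured mice are labelled Healthy. Both isolations used retrograde enzyme perfusion and a Histodenz density gradient followed by a sort for viable GFP-positive cells negative for the leucocyte marker CD45 and the endothelial marker CD102. Each library pooled 3 mice, so each side of the comparison is 1 measurement, no difference was tested against variation between animals, and no p-value is given. Confidence intervals (95%, exact) cover counting error only. Library preparation, sort and injury cannot be told apart.

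HSCs are the vitamin A-storing pericytes of the hepatic sinusoid. In uninjured liver they hold retinyl esters and secrete regulators of hepatocyte growth, and after injury a fraction of them becomes the collagen-secreting myofibroblasts that lay down scar. CCl4 is converted to toxic radicals by hepatocytes around the central vein, so repeated dosing gives fibrosis that starts in the centre of the lobule.

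The 6-week library held 52235706 unique molecular identifiers (UMIs, each standing for 1 captured transcript) and the uninjured library 46392040. The median cell carried 9893 UMIs and 2981 genes at 6 weeks against 6718 UMIs and 2557 genes in uninjured liver, and the median mitochondrial share was 1.75% in both. Levels below are UMIs of a gene per 1000000 UMIs of a library (CPM), summed over all its cells. Because the 6-week cells were deeper, shares of cells with a UMI are given after each cell was thinned to 2000 UMIs, which kept 5454 and 6736 cells and left out 114 shallower uninjured cells. The libraries shared 56 barcodes, 1.03% of the 6-week and 0.818% of the uninjured cells.

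The label of the isolation held up for Reln and Lrat. Reln, a secreted glycoprotein of HSCs, stood at 1405 CPM in uninjured cells and 1279 CPM at 6 weeks, and was seen in 91.9% and 88.1% of thinned cells. Lrat, the enzyme that esterifies vitamin A for storage, stood at 1253 and 1521 CPM and was seen in 89.4% and 91.0%. By a rule of 3 or more of 7 stellate markers, 5453 of the 5454 cells at 6 weeks carried the stellate set. So did 6848 of 6850 uninjured cells. The summed level of the 7 markers was lower at 6 weeks, at 27246 CPM in uninjured and 14868 CPM in 6-week cells. Of the 7, only Lrat stood above 1-fold, and Ecm1 and Pth1r were lower by 2-fold or more. Saa3 and Gpx3, the other genes used to mark the injured state, behaved differently from each other and are described below.

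Across the 6019 genes that reached 20 CPM in either library, 172 were higher by 2-fold or more at 6 weeks (2.86%) and 97 were lower by 2-fold or more (1.61%). Most genes differed little, with 82.2% within 1.5-fold. The interval lay wholly beyond 2-fold for 150 of the higher and 65 of the lower genes, and 43 genes were higher against 5 lower by 4-fold or more. The median gene stood at a log2 ratio of −0.22. Cytosolic ribosomal protein genes, a list added after the values were seen, summed to 95619 CPM in uninjured cells and 173536 CPM at 6 weeks. Centring all ratios on that median gave 275 higher and 33 lower genes, so that the share of calls that were higher went from 63.9% to 89.3%. A list median below is therefore read against −0.22, and counts past 2-fold in a list beside 2.86% higher and 1.61% lower of all genes. Centring also added higher calls. Genes named below that passed 2-fold only then included Col1a2, Tpm1, Loxl1 and Ccl19. Of the 172 higher genes, 158 were annotated as protein coding (91.9%, beside 98.7% of all 6019). Another 7 were processed pseudogenes (4.07%, beside 0.349%), which can take reads from a near-identical parent gene. Ribosomal protein genes made up 26 of the 172, out of 83 such genes among the 6019.

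**Figure D1:**
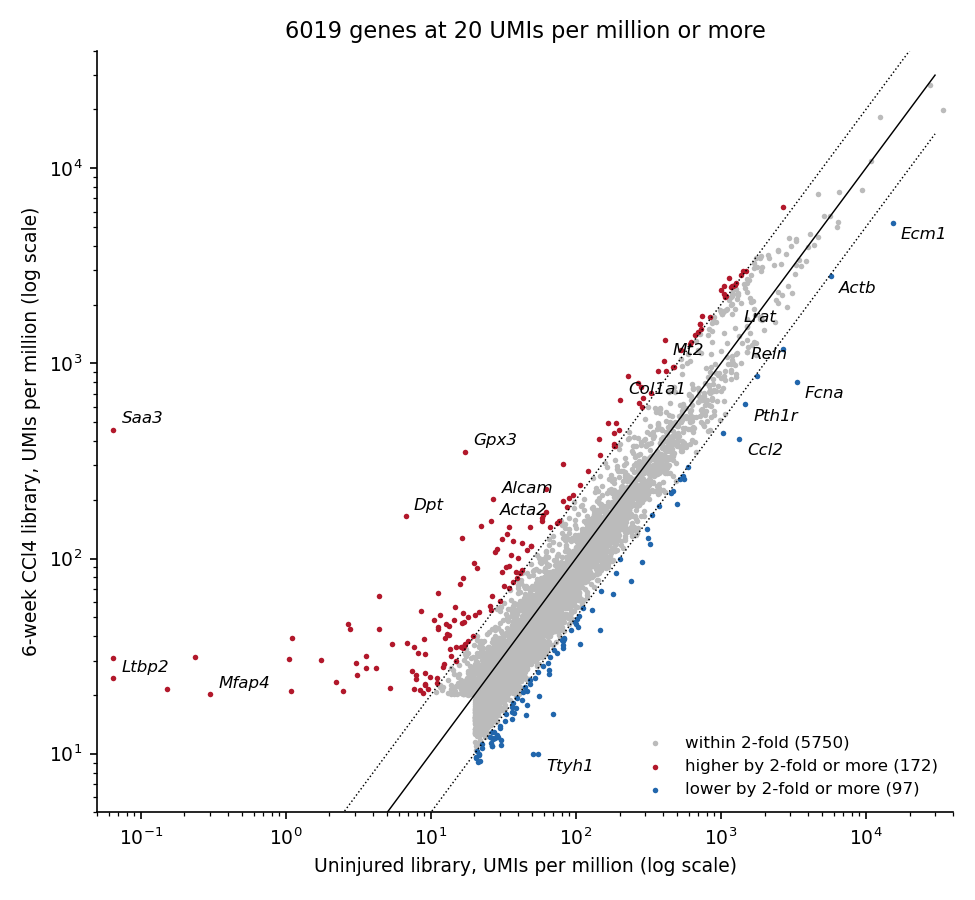
Level of each of 6019 genes in the uninjured library (x axis) and the 6-week CCl4 library (y axis), in CPM on log axes, with equality as a solid line and 2-fold as dotted lines. The 172 genes in red lie above the upper dotted line and the 97 in blue below the lower one; a gene with no uninjured UMI is drawn at the level of 3 UMIs.

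Among genes at 50 CPM or more in the higher library, the largest ratios after that of Saa3 belonged to genes that were rare in uninjured HSCs. Dpt, which encodes the matrix protein dermatopontin, went from 6.70 to 165 CPM, 24.6-fold (21.9 to 27.6), and from 1.25% to 18.4% of thinned cells. Gpx3, the secreted glutathione peroxidase, went from 17.3 to 353 CPM, 20.4-fold, and from 2.87% to 34.7% of thinned cells. Plat, tissue plasminogen activator, went from 4.40 to 64.6 CPM, 14.7-fold. UMIs per positive thinned cell, which cannot be below 1, were 1.72 for Dpt and 2.03 for Gpx3 at 6 weeks, against 1.14 and 1.17 in uninjured liver.

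The genes that followed at 50 CPM or more included Alcam, Timp1 and Mdk; genes with larger ratios below that level are given with their lists. Alcam, a cell adhesion molecule of the immunoglobulin family, stood at 26.9 CPM in uninjured and 201 CPM in 6-week cells (interval of the ratio 7.07 to 7.96). Timp1, an inhibitor of metalloproteinases, stood at 8.56 and 54.0 CPM, 6.31-fold. Mdk, the heparin-binding growth factor midkine, stood at 11.1 and 66.4 CPM, 5.97-fold. Serpine2, a serpin that inhibits plasminogen activators and thrombin, was 4.81-fold higher, and Tnc, the matricellular protein tenascin C, 4.44-fold. Hk2, an inducible hexokinase, was 4.28-fold higher, and Pim1, a serine/threonine kinase induced by cytokine signalling, 4.20-fold. Aebp1, a secreted collagen-binding protein, and Fhl2, a LIM-domain cofactor of actin-linked transcription, were each 3.88-fold higher. AY036118 (6.55-fold) and Gm10020 (4.07-fold) were among the 20 largest but are poorly characterised loci whose counts may be shared with other sequences.

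**Figure D2:**
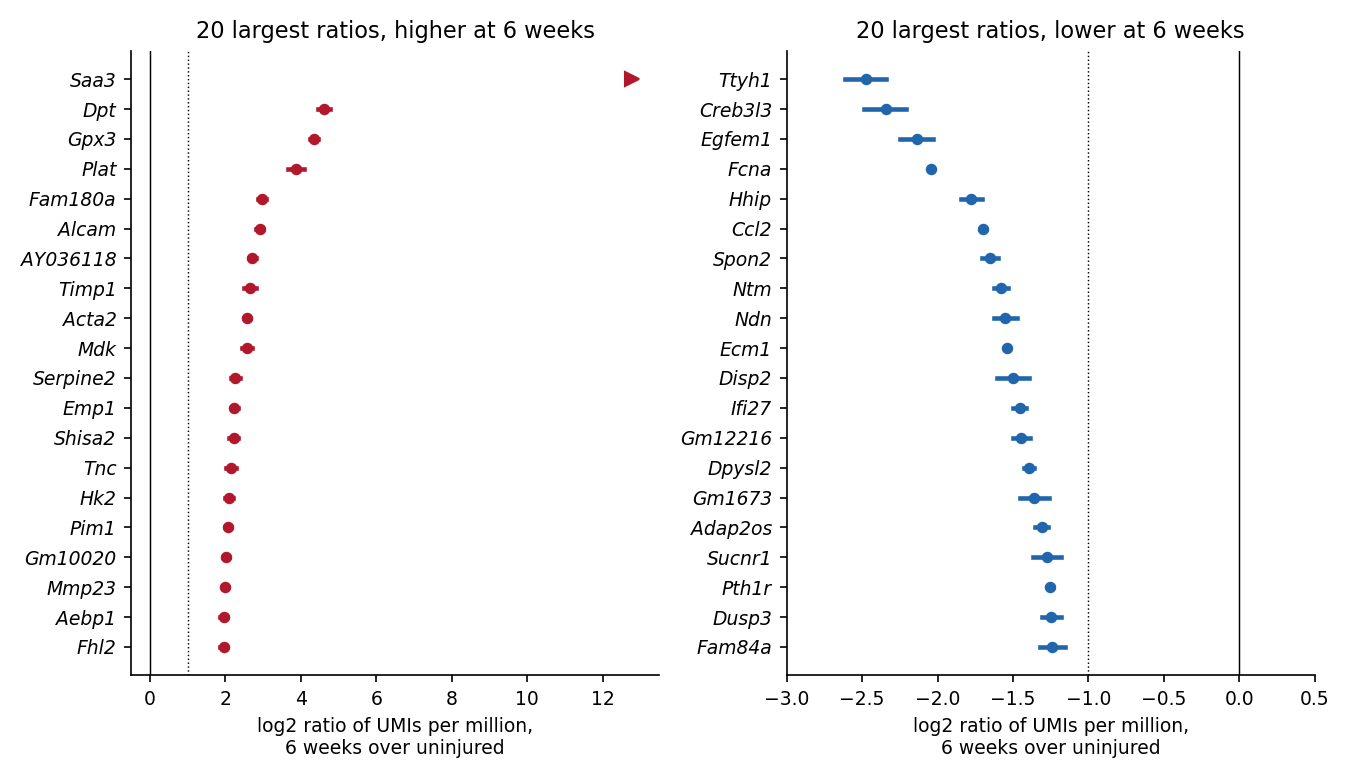
The 20 largest ratios in each direction among genes at 50 CPM or more in the higher library, as log2 of 6-week over uninjured CPM, with points for the ratio and bars for the 95% counting interval; dotted lines mark 2-fold. Saa3 is an arrowhead because its uninjured count was 0 and its ratio a lower bound; apart from it, the higher genes reach 24.6-fold (Dpt) and the lower genes 5.56-fold (Ttyh1).

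Saa3, an acute phase serum amyloid gene, had no UMI among 46392040 in the uninjured library and 23891 UMIs at 6 weeks, a level of 457 CPM. With a floor of 3 UMIs in place of 0 the ratio was 7073, and the lower limit of its interval was 5752. That level came from very few cells. The cell with most Saa3 held 4920 UMIs of it, 5 cells held over 50% of all Saa3 UMIs, and the 21 cells with 10 or more held 90.3%. Of the 1834 cells with any Saa3 UMI, 1407 had exactly 1. The other 5433 cells together held 2316 UMIs, a level of 44.7 CPM.

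The 21 cells also carried a large part of the UMIs of some other acute phase genes. They held 77.9% of the UMIs of Lcn2, the iron-siderophore-binding lipocalin, 70.2% of Hp, haptoglobin, and 44.8% of C3, the central complement component. Their stellate transcripts were at lower levels. Lrat stood at 203 CPM in them against 1531 CPM in the other cells, Reln at 184 against 1287 CPM, and Ecm1 at 1022 against 5291 CPM. Before thinning, a Lrat UMI was still found in 20 of the 21, a Reln UMI in 19 and an Ecm1 UMI in 21. No cell of the 21 had a UMI of Ptprc, Pecam1, Upk3b, Epcam or Clec3b, which mark leucocytes, endothelium, mesothelium, biliary epithelium and portal fibroblasts, while 2 had Krt19 and 1 had Msln. Epcam, Upk3b, Krt19 and Msln had no UMI in the other cells. Dpt, a matrix gene that also marks fibroblasts, was found in 18 of the 21 and in 39.6% of the other cells, and Mfap4, of the same marker list, in 9 of the 21 and in 6.64%, before thinning. By level, Dpt stood at 171 CPM in the 21 cells and 165 CPM in the others. The median depth of the 21 cells was 19038 UMIs against 9887 in the rest. With all 6-week cells carrying another type's marker set left out, 15115 of the 23891 Saa3 UMIs remained. For Lcn2 1159 of 1621 UMIs remained, and for Hp 933 of 1572. How many of the 21 were among the cells left out was not counted. The 21 cells were picked by their Saa3 count, so their values are a description.

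The share of thinned 6-week cells with a Saa3 UMI, 8.56%, differed little with the other genes compared. It was 9.52% among cells with a Gpx3 UMI and 8.05% among those without, and 8.67% and 8.44% among cells with Ngfr alone and Adamtsl2 alone. Among the 164 cells with both it was 11.6% (7.12 to 17.5). The part of free RNA in the droplets was not tested. Alb, the hepatocyte gene for albumin, was found in 4.07% of uninjured and 3.54% of 6-week thinned cells. Those shares concern hepatocyte RNA and cannot gauge free Saa3 RNA, which would come from cells rich in Saa3. In the 6-week PF isolation, 1.19% of cells had a Saa3 UMI before thinning against 33.6% here, at median depths of 5097.5 and 9893 UMIs.

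**Figure D3:**
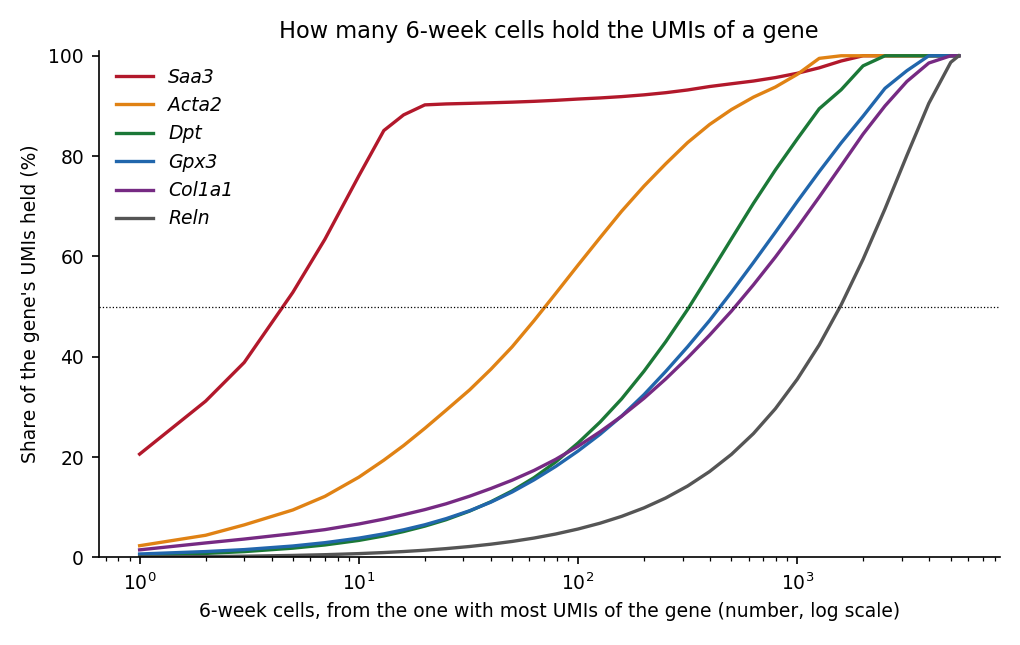
Share of a gene's UMIs (y axis, %) held by the 6-week cells richest in that gene (x axis, number of cells on a log scale, counted from the richest). The dotted line at 50% is crossed by Saa3 at 5 cells, Acta2 at 71, Dpt at 323, Gpx3 at 447, Col1a1 at 522 and Reln at 1571.

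Among genes at 50 CPM or more in the higher library, Ttyh1 was lower at 6 weeks by the most. Ttyh1, a chloride channel family member, stood at 55.2 CPM in uninjured cells and 9.92 CPM at 6 weeks, 5.56 times lower (5.06 to 6.13). Creb3l3, a membrane-bound transcription factor of lipid metabolism, was 5.08 times lower, and Egfem1, an EGF-domain protein, 4.40 times lower. Fcna, the lectin ficolin A, went from 3327 to 807 CPM, 4.12 times lower, and Ecm1, the secreted extracellular matrix protein 1, from 15298 to 5260 CPM, 2.91 times lower. Both were still found in most cells: Ecm1 in 98.8% of thinned 6-week cells at 10.6 UMIs per positive cell, against 30.9 in uninjured cells, and Fcna in 64.9% against 96.3%.

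Hhip, which binds and restrains Hedgehog ligands, stood at 147 and 43.0 CPM, 3.42 times lower at 6 weeks. Ccl2, the monocyte chemokine, stood at 1334 and 411 CPM, 3.24 times lower, and was found in 51.1% of uninjured and 28.0% of 6-week thinned cells. Spon2 (242 and 77.0 CPM, 3.14 times lower) encodes the secreted protein spondin 2, and Ntm (287 and 95.9 CPM, 2.99 times lower) the adhesion molecule neurotrimin. Pth1r, the parathyroid hormone receptor, was 2.39 times lower, and Sucnr1, the succinate receptor, 2.42 times lower. Adap2os, 2.48 times lower, is listed as antisense to another gene, and the part of its partner's reads in this value was not tested.

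The windows upstream of the leading genes are shown to let the reader see where they lie and what short motifs they hold. Each is the 250 bases before the RefSeq transcription start, 5′ to 3′ on the gene's strand, in lower case, in build GRCm38.p6. Capitals mark a match on either strand to one of 5 motifs: AP-1 (TGANTCA), C/EBP (TTGCNNAA), TEAD (GGAATG), NF-kB (GGG and, 3 bases on, TNCC) and the TATA box (TATAAA). At 50 CPM or more, the first 3 had the largest ratios of the higher side and the last that of the lower side.
Saa3 (chr7:46715677-46715926, minus strand): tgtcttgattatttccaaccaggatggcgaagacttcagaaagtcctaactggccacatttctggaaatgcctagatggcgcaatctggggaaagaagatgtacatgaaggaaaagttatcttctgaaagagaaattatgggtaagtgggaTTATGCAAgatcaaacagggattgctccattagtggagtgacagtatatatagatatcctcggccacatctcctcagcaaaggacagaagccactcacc
Dpt (chr1:164796413-164796662, plus strand): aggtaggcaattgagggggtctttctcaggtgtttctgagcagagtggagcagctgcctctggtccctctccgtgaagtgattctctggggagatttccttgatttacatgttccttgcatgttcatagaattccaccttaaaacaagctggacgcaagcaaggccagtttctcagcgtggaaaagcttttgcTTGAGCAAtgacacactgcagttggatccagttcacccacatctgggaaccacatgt
Gpx3 (chr11:54902604-54902853, plus strand): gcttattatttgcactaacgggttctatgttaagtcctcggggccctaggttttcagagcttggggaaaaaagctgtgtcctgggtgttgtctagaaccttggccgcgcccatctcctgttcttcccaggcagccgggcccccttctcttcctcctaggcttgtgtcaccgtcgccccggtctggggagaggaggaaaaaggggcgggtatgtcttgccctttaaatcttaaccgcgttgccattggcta
Ttyh1 (chr7:4119280-4119529, plus strand): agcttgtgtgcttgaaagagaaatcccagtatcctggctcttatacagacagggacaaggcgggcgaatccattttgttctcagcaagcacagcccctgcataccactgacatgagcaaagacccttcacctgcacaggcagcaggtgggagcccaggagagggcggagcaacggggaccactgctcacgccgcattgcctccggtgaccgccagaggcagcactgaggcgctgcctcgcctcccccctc

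Saa3 and Dpt each held 1 C/EBP match, at 99 and 57 bases before the start, and Gpx3 and Ttyh1 held none of the 5 motifs. The C/EBP letters occurred in 9.55% of 27025 mouse promoters of this length, in 7.69% of the 4640 genes at 20 CPM that had a promoter in the table, in 14 of 110 higher genes (12.7%) and in 5 of 72 lower genes (6.94%). The AP-1 letters occurred in 6.87% of all promoters, 3.94% of the genes at 20 CPM, 10.9% of higher and 13.9% of lower genes. A match is a stretch of letters and not evidence that a factor binds. In GENCODE coordinates of the same build, Saa3 (ENSMUSG00000040026) spans chr7:46711998-46715700 on the minus strand, Dpt (ENSMUSG00000026574) chr1:164796644-164824266 on the plus strand, Gpx3 (ENSMUSG00000018339) chr11:54902453-54910377 on the plus strand and Ttyh1 (ENSMUSG00000030428) chr7:4119408-4136708 on the plus strand. By these spans, the Gpx3 window lies wholly inside its gene, and the Saa3, Dpt and Ttyh1 windows overlap the start of theirs. A droplet library reads the 3′ ends of transcripts, so no level or ratio here depends on the start site. The motif matches, their positions and their shares do depend on it.

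All 29 genes of the stellate identity list reached 20 CPM, and 5 were lower by 2-fold or more and none higher. Its median log2 ratio was −0.35 beside −0.22 for all genes, with 12 members above that all-gene median. The 5 were Fcna, Ecm1, Pth1r, Angptl6 (2695 and 1185 CPM, a secreted angiopoietin-like factor) and Tmem56 (1776 and 857 CPM). Tmem56 and Angptl6 were no longer past 2-fold after centring. Members within 2-fold included Rgs5, a regulator of G-protein signalling in pericytes, at 2471 and 2310 CPM, Hgf, hepatocyte growth factor, at 578 and 381 CPM, Des, desmin, at 403 and 302 CPM, and Lhx2, a homeobox factor of quiescent HSCs, at 362 and 279 CPM. Pdgfrb, which drives the reporter, stood at 219 and 278 CPM.

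Retinoid genes stayed close to the rest. Of 25 listed, 14 reached 20 CPM, with 1 higher and 1 lower, beside 2.86% and 1.61% of all genes. The median log2 ratio was −0.07. The gene that was higher was Dhrs3, a retinaldehyde reductase, at 62.7 CPM in uninjured and 174 CPM in 6-week cells, 2.77-fold. Aldh1a3, a retinoic acid-forming dehydrogenase, was the lower one at 20.4 and 9.67 CPM, and it lost its call after centring. Within 2-fold, Rarb, a retinoic acid receptor that is itself induced by retinoic acid, stood at 31.4 and 48.2 CPM.

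Collagen chains of all types were counted together. Of 14 chains at 20 CPM, 13 stood above 1-fold and 4 were higher by 2-fold or more, and the median log2 ratio was 0.63. Col1a1 went from 201 to 650 CPM, 3.23-fold (3.16 to 3.31). Its partner chain Col1a2 went from 590 to 1116 CPM, 1.89-fold, and Col3a1 from 1244 to 1910 CPM, 1.54-fold, so the type I alpha 1 chain differed most of the 3. The others past 2-fold were Col8a1 (3.10-fold), Col6a3 (2.32-fold) and Col27a1. Of 12 basement membrane genes, 0 passed 2-fold either way, beside 2.86% higher and 1.61% lower of all genes. Their median log2 ratio was 0.04, with 9 members above the all-gene median, and Col4a2, a type IV chain, was 1.36-fold higher.

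Of 21 collagen-processing genes, 19 stood above the all-gene median but only Lox, lysyl oxidase, passed 2-fold, at 2.48 and 20.9 CPM, 8.43-fold. Its relatives Loxl1 (1.80-fold) and Loxl2 (1.54-fold) and the collagen chaperone Serpinh1 (1589 and 2176 CPM, 1.37-fold) were higher by less. Lox was found in 3.47% of thinned 6-week cells, which is no more than the share with Alb.

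Matricellular proteins and proteoglycans had 6 members higher and 2 lower of 27, with a median log2 ratio of 0.20. The largest ratios came from 2 genes that uninjured HSCs almost lacked. Mfap4, a microfibril-associated glycoprotein of elastic fibres, had 14 UMIs in the uninjured library, and its ratio of 67.2 carried an interval of 39.9 to 123. Fbln1, fibulin 1, stood at 3.06 and 29.1 CPM, 9.50-fold. Thbs1, thrombospondin 1, stood at 33.1 and 90.2 CPM, 2.72-fold. Spon2 and Efemp1 were the 2 lower members.

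The protease and inhibitor list had 8 members higher and 2 lower of 20, with a median log2 ratio of 0.54. Besides Plat, Timp1 and Serpine2, the higher members were Adamts4, an aggrecanase, at 10.5 and 48.4 CPM, Mmp23 at 33.6 and 133 CPM, Htra3 at 48.5 and 145 CPM, Mmp2, gelatinase A, at 146 and 338 CPM, and Timp3 at 108 and 237 CPM. Reck, a membrane-anchored inhibitor of metalloproteinases, and Adamts1 were lower. Matrix-degrading enzymes and their inhibitors were thus both among the higher genes.

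Contractile genes split. Acta2, smooth muscle actin and the usual marker of myofibroblasts, went from 26.0 to 156 CPM, 5.97-fold (5.62 to 6.35), and from 2.08% to 10.2% of thinned cells. Fhl2 was the only other of 25 members higher by 2-fold, while Actb, cytoplasmic beta actin, was lower at 5727 and 2798 CPM, a call lost after centring, after thinning and when every cell was given equal weight. Tpm1 (1.91-fold) and Vim (1.67-fold) were higher by less, and the list's median log2 ratio of −0.16 was close to that of all genes.

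TGF-beta and BMP genes had 4 higher and 1 lower of 33, with a median log2 ratio of 0.01. Ltbp2, a secreted relative of the proteins that hold latent TGF-beta in the matrix, had 3 UMIs in the uninjured library and 1275 at 6 weeks, and its ratio of 377 had an interval from 129 to 1833. With cells carrying markers of another type left out, 1 uninjured UMI remained and the ratio was 991 (178 to 39188). The ligands Tgfb3 (9.10 and 22.8 CPM, 2.51-fold) and Tgfb2 (16.3 and 35.3 CPM, 2.17-fold) were higher, and both lost their calls with cells carrying markers of another type left out. Id2, a target of BMP signalling, was 2.05-fold higher, and the ligand Bmp2 was lower at 190 and 84.6 CPM, 2.25 times, a call lost after centring.

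Of 27 growth-factor and angiogenic genes, 3 were higher and 1 lower, with a median log2 ratio of 0.08. Gas6, the ligand of the TAM receptors, stood at 2.78 and 43.7 CPM, 15.7-fold (10.2-fold after thinning), and Igf1, insulin-like growth factor 1, at 5.43 and 36.4 CPM, 6.70-fold. Pdgfra was 1.57-fold and Pdgfrb 1.27-fold higher, whereas Lpar1, a lysophosphatidic acid receptor, stood at 49.5 and 48.4 CPM with an interval of the ratio that spans 1. Spry2 and Spry1, feedback inhibitors of receptor tyrosine kinases, were 2.02 and 1.98 times lower, and Spry2 lost its call under most other settings.

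Wnt, Notch and Hedgehog genes had 2 higher and 2 lower of 14, with a median log2 ratio of −0.35. Dkk3, a member of the Dickkopf family of secreted Wnt modulators, stood at 36.8 and 124 CPM, 3.36-fold, and Wnt5a, a non-canonical Wnt ligand, at 5.26 and 21.6 CPM, 4.11-fold. Heyl, a Notch target, was lower together with Hhip, at 71.1 and 34.1 CPM, a call lost after centring, and Jag1, a Notch ligand, stood at 58.0 and 31.1 CPM.

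Inflammatory genes did not move as one. Chemokines and cytokines had 0 of 15 members higher and 4 lower, with the lowest median of the 25 pathway lists, −0.46. Besides Ccl2 these were Ccl7 (150 and 68.5 CPM), Tnfrsf11b, the decoy receptor osteoprotegerin (526 and 257 CPM), and Cxcl2 (22.6 and 11.2 CPM). Of these 4, only Ccl2 remained past 2-fold after centring. Ccl19, a ligand of lymphocyte homing, was the member nearest the other side at 97.7 and 194 CPM, and passed 2-fold on the higher side after centring.

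Acute phase genes had 6 higher and 1 lower of 21 around a median log2 ratio of 0.02. Of the 6, Saa3, Lcn2 and Hp had most of their UMIs in the few cells described above. For C3 the share there was 44.8%, so most of its UMIs lay in other cells. C3 was found in 0.356% of uninjured and 4.02% of 6-week thinned cells. Lcn2 had no uninjured UMI. Over a floor of 3 UMIs its ratio was 480 (interval from 390), and 120 (from 96.8) without the 5% of cells with most UMIs. Serpina3n, a serpin of the acute phase, was not concentrated in the same way: it had 11 uninjured and 1626 6-week UMIs, a ratio of 131 (73.2 to 264), and 15.7% of them lay in the 21 cells with 10 or more Saa3 UMIs. Osmr, the oncostatin M receptor, stood at 21.6 and 53.4 CPM, 2.47-fold. Tnfaip3, an inhibitor of NF-kB signalling, was the lower member.

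Interferon-stimulated genes were higher on balance, with 31 of 37 above the all-gene median, 28 above 1-fold, 3 past 2-fold and none lower by 2-fold. The median log2 ratio was 0.38. Irf7, the factor that amplifies type I interferon responses, stood at 145 and 412 CPM, 2.84-fold, and was found in 23.5% of uninjured and 50.9% of 6-week thinned cells. Zbp1, a nucleic acid sensor, was 2.36-fold and Rsad2, viperin, 2.07-fold higher, and Ifit3 stood at 316 and 596 CPM. Ifi27, an interferon-inducible gene outside the list, was 2.74 times lower, at 325 CPM in uninjured and 119 CPM in 6-week cells. Antigen presentation genes were on the other side of the median, with a median log2 ratio of −0.30. Of 17, 0 were past 2-fold, beside 2.86% higher and 1.61% lower of all genes. Tap2, a subunit of the peptide transporter, stood at 133 and 71.5 CPM.

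Among complement and lectin genes, 3 of 14 were higher and 1, Fcna, lower. C4b stood at 82.1 and 197 CPM, 2.40-fold, and C6 at 38.7 and 85.0 CPM. Both were present in more thinned cells, 28.1% against 14.1% for C4b and 15.4% against 7.13% for C6.

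Metal-binding and redox genes gave 3 higher of 34 and none lower. Mt2 stood at 405 and 1032 CPM, 2.55-fold, and Mt1 at 1202 and 2205 CPM, 1.83-fold; both encode metallothioneins. Hmox1, heme oxygenase 1, was 2.33-fold higher, and Gstm1, a glutathione transferase, stood at 669 and 350 CPM. In glucose use, Hk2 and Pgk1 (9.94 and 24.8 CPM) were higher of 17, while Hk1, the constitutive hexokinase, stood at 39.4 and 26.6 CPM. The cholesterol and lipid synthesis list also holds genes of lipid storage and transport. It had 2 lower of 14, Srebf1 (2.22 times) and Hmgcs1 (2.19 times), with a median log2 ratio of −0.35. Both calls were lost after centring.

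Cell division genes were few at this level, 14 of 36 at 20 CPM. Cdk1 was 2.55-fold higher at 34.3 CPM, but Mki67, the usual marker of cycling cells, stood at 14.6 and 8.94 CPM. Secretory pathway genes (38 measured) and heat shock genes (16) had no member past 2-fold. Beside 2.86% higher and 1.61% lower of all genes, few calls would be met in lists this short. Of 22 immediate early genes, which also respond to tissue digestion, Gadd45g (2.80-fold) and Nr4a1 (2.21-fold) were higher and the median log2 ratio was −0.20.

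**Figure D4:**
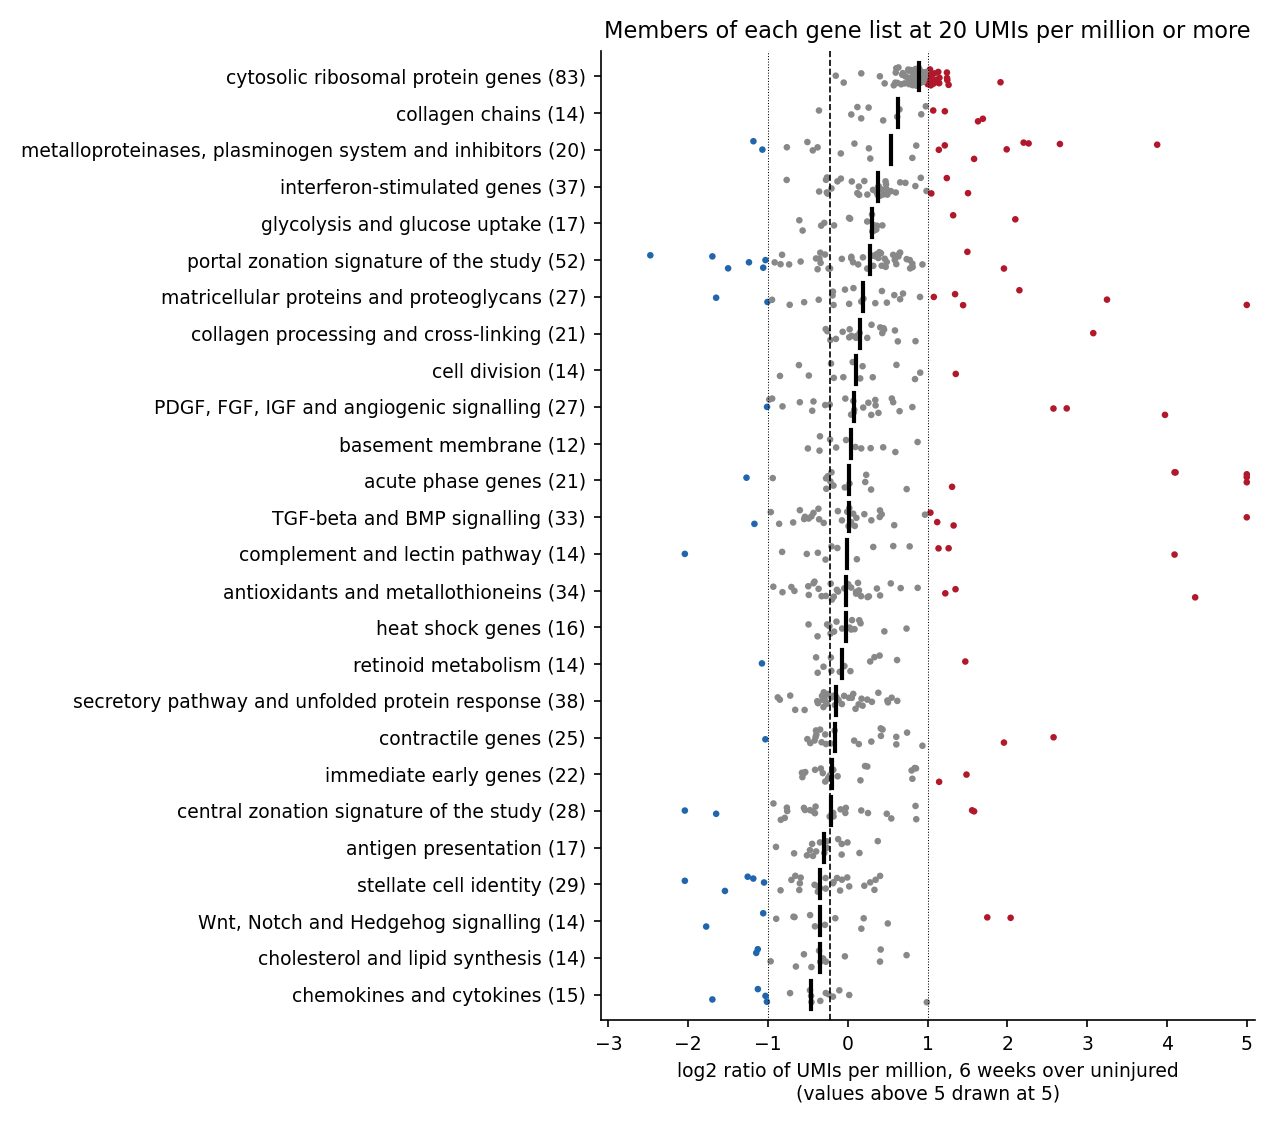
Each point is a gene of a list at 20 CPM or more (number in brackets), placed by its log2 ratio of 6-week over uninjured CPM; red and blue points are past 2-fold, black bars are list medians and the dashed line is the median of all 6019 genes. Ribosomal protein genes (median 0.89) and collagen chains (0.63) sit farthest right, and chemokines and cytokines (−0.46) farthest left.

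The study's lists of portal and central zonation genes were chosen on the uninjured cells of this series, so their direction here is not independent evidence. The portal list had a median log2 ratio of 0.27, with 2 of 52 higher and 6 lower, and the central list −0.21, with 2 of 28 higher and 2 lower. Their main markers were both lower within 2-fold. Ngfr, the portal marker, stood at 297 and 166 CPM, and Adamtsl2, the central marker, at 186 and 110 CPM; Rspo3, a Wnt amplifier of the central side, stood at 864 and 649 CPM, and Itgb3, of the portal side, at 88.9 and 111 CPM.

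Collagen was unevenly spread over the 6-week cells. In 2000 UMIs, the sum of Col1a1, Col1a2 and Col3a1 had a median of 4 in uninjured and 5 in 6-week cells but means of 4.09 and 7.20. Counting cells above 15 UMIs, the 99th percentile of uninjured cells, gave 58 of 6736 uninjured cells (0.861%) and 441 of 5454 cells at 6 weeks (8.09%, 7.38 to 8.84). This is a range and not a cell type, and 248 of the 6-week cells lay within 2 UMIs of its limit. The collagen-high share was 15.3% (12.9 to 18.1) among cells with an Adamtsl2 UMI alone and 4.99% (3.84 to 6.36) among those with Ngfr alone. Most 6-week cells had no UMI of either gene in 2000, 3297 of all 5454 and 248 of the 441 collagen-high cells. Before thinning, Ngfr was found in 60.3% and Adamtsl2 in 48.1% of 6-week cells, against 25.4% and 17.1% after it. The collagen-high share was 7.52% among the 3297 cells with neither. Among the 164 cells with both it was 8.54% (4.75 to 13.9). In uninjured cells the shares with Adamtsl2 alone and Ngfr alone were 0.959% and 0.579%, with overlapping intervals. Acta2 had the opposite order to collagen at 6 weeks. An Acta2 UMI was found in 6.75% (5.08 to 8.76) of thinned cells with Adamtsl2 alone and 13.0% (11.2 to 15.0) with Ngfr alone. Acta2 was not counted by these groups in uninjured cells, so whether the order was there before injury is not shown. At 6 weeks, 71 cells held 50% of the Acta2 UMIs.

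**Figure D5:**
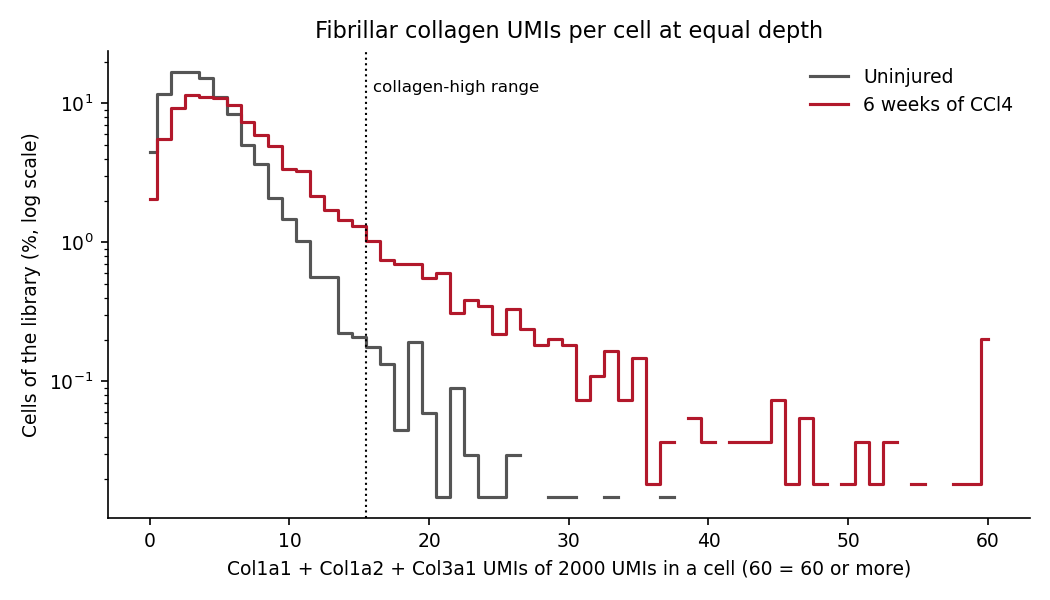
Share of cells (y axis, %, log scale) with each number of fibrillar collagen UMIs (x axis, Col1a1, Col1a2 and Col3a1 summed in 2000 UMIs), for 6736 uninjured cells in grey and 5454 cells at 6 weeks in red. The dotted line marks the limit of 15 UMIs, above which lie 0.861% of uninjured and 8.09% of 6-week cells.

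The collagen-low range held 5013 of the 5454 6-week cells, so most calls made on all cells would be kept in it. The counts of kept calls therefore do not show where the difference between the libraries lay. Of 171 genes higher by 2-fold that could be compared, 162 were still higher by 2-fold in collagen-low 6-week cells than in uninjured cells, and of 97 lower genes 85 were still lower. Gpx3 stood at 320 CPM in collagen-low and 737 CPM in collagen-high cells, and Alcam at 182 and 422 CPM, against 17.3 and 26.9 CPM in uninjured cells.

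Between the ranges, 62 genes were higher and 55 lower by 2-fold in collagen-high cells among 6016, with the 3 collagens themselves left out. Dpt stood at 603 CPM in collagen-high and 126 CPM in collagen-low cells and was found in 52.2% and 15.5% of them. Timp1 stood at 253 and 36.1 CPM, Igf1 at 184 and 23.1 CPM, Gas6 at 182 and 31.3 CPM, Ltbp2 at 122 and 15.6 CPM and Mfap4 at 137 and 9.71 CPM. Eln, elastin, stood at 155 and 47.9 CPM and Loxl1 at 299 and 102 CPM. On the lower side, Ecm1 stood at 2521 and 5530 CPM, Fcna at 296 and 857 CPM, Rgs5 at 1195 and 2421 CPM and Itgb3 at 35.4 and 118 CPM. Saa3 CPM also differed, 4221 against 116, but its share of cells barely did, 10.9% against 8.36%. A small part of the range lacked stellate transcripts: 6.35% of collagen-high cells had neither a Lrat nor a Reln UMI in 2000, against 1.28% of collagen-low cells.

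Markers of other cell types were measured beside these results. By sets of 3 or more markers (4 for fibroblasts, Gpx3 not counted, and for vascular smooth muscle cells, with Myh11, Cnn1 or Pln among them), 13.6% of 6-week and 7.93% of uninjured cells carried another type's set. The vascular smooth muscle set went from 0.993% to 6.22% of cells, the fibroblast set from 0 to 32 cells (0.587%), and the hepatocyte set from 6.64% to 7.68%. These shares are of unthinned cells, at median depths of 6718 UMIs in uninjured and 9893 at 6 weeks. Hepatocyte markers summed to 306 CPM in uninjured and 214 CPM in 6-week cells, the opposite order to their share. The part of depth in the shares was not tested. The smooth muscle list shares Acta2 and Tagln with activated HSCs, and Tagln, Tpm2 and Myh11 are also in the study's portal HSC list. Pln and Cnn1, which define smooth muscle, had no UMI in either library. In these libraries the smooth muscle set could thus be met only by Tagln, Acta2, Tpm2 and Myh11 together. Fibroblast markers summed to 31.3 CPM in uninjured and 575 CPM in 6-week cells, with Gpx3, Dpt and Mfap4 at 353, 165 and 20.3 CPM of the latter, against 7753 CPM in the 6-week PF isolation. Of the mesothelial list, Upk3b, Upk1b and Lrrn4 were at 0 in both libraries while Wt1, a factor of mesothelium and of mesenchyme derived from it, stood at 1.10 and 39.1 CPM, 35.5-fold. With all cells carrying another type's set left out, 177 genes were higher and 98 lower. Fewer cells of a type and less RNA per cell cannot be told apart for such summed levels.

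The other libraries of the series place these levels. At 72 h after a single dose of CCl4, the HSC isolation stood at 2151 CPM for Col1a1, 872 CPM for Acta2, 82.5 CPM for Lox and 181 CPM for Timp1, each above its 6-week level. The order was reversed for Saa3, which stood at 3.47 CPM at 72 h, and for Gpx3 at 176 CPM, Dpt at 78.5 CPM and Alcam at 146 CPM. Ecm1 stood at 935 CPM and Fcna at 188 CPM at 72 h, below both the uninjured and the 6-week level. Both time points share the uninjured library as their control. In the PF isolations, where markers of fibroblasts and vascular smooth muscle prevailed, Dpt stood at 1652 CPM uninjured and 1554 CPM at 6 weeks and Gpx3 at 2184 and 1896 CPM, so genes that were rare in uninjured HSCs were abundant there with and without injury. That pair shares no library with the HSC pair. Of the 172 genes higher in HSCs, 130 reached 20 CPM in the PF pair, and 5 of them were also higher there by 2-fold (3.85%), beside 1.74% of all 5229 genes measured in both. Of the 97 genes lower in HSCs, 58 reached that level in the PF pair, where 5 were higher by 2-fold (8.62%) and 3 lower (5.17%, beside 0.172% of all genes).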

How the data were processed

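Libraries were made with the 10x Genomics 3′ v2 kit. Per the labels, the authors aligned reads to mm10 and counted UMIs per gene and barcode with Cell Ranger 2.1.0; the deposited values are raw counts, filtered to cell-containing barcodes. From these counts, cells with 300 genes or more and at most 30% mitochondrial UMIs were kept and UMIs were summed per gene and library. Ratios used CPM with a floor of 20 CPM in either library, a floor of 3 counts in place of 0, exact Poisson and binomial intervals (95%, counting error only), and thinning to 2000 UMIs per cell without replacement (Python 3.11.15, NumPy 2.4.6, SciPy 1.17.1, matplotlib 3.10.9). No doublet caller was run; the 5% of cells with most UMIs were left out as an alternative. Scripts were tested on simulated counts. Named genes were 25 genes of the study or the label, the 20 largest ratios each way at 50 CPM or more, and up to 5 members of each of 34 lists. The members and lists were chosen with earlier results of these data known; the ribosomal and clock lists and the counts of cells holding Saa3 were added after the values were seen. The remaining droplet libraries give values side by side, and the plate libraries were not used here.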

Additional observations from a re-analysis of the deposited data

Results flagged for a closer look

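In 2 named genes the ratio at 6 weeks lay past 2-fold in one direction in the HSC pair and in the other direction in the PF pair, which has its own uninjured library. Heyl was 2.09 times lower in HSCs and 2.37-fold higher in the PF pair, where it stood at 65.4 and 155 CPM. Adap2os was 2.48 times lower in HSCs and 2.55-fold higher in the PF pair, at 16.9 and 43.1 CPM. The difference between the pairs was not tested, since each side is 1 library. Before thinning, the share of cells with the vascular smooth muscle set was 30.7% in the uninjured and 69.5% in the 6-week PF isolation. Its part in these values was not tested.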

How the results depend on the processing

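Equal weight for every cell, thinning, a limit of 10% mitochondrial UMIs, and leaving out cells with another type's markers or the 5% deepest cells each gave 167 to 177 higher and 84 to 98 lower genes, beside 172 and 97. Centring gave 275 and 33, and totals without mitochondrial and ribosomal protein genes 250 and 51. A floor of 5 CPM gave 327 and 175, one of 50 CPM 110 and 55, and none 2091 and 1728, since more or fewer genes were compared. The collagen-high share of 8.09% became 21.4% at the 95th percentile, where the uninjured share was 4.91% in place of 0.861%, 9.66% from unthinned shares and 8.86% without the deepest cells. No called ratio changed sign. Over a floor of 3 UMIs, the fold of Saa3 was 7073 (interval from 5752), 1112 (from 903) after thinning and 1645 (from 1337) without the deepest cells. The fold of Hp was 17.2, and 5.59 without the deepest cells. Over the same floor, the fold of Lcn2 was 480 (from 390), and 76.6 (from 61.7) after thinning. Gas6 was 10.2-fold higher after thinning. Serpina3n (131) was at 361 (64.2 to 14293) after thinning, over 1 uninjured UMI, and 372 (127 to 1808) without the deepest cells, over 3; Ltbp2 (377) was at 152 (41.6 to 1261) after thinning, over 2. The causes were not tested. No paired analysis was possible because each group is 1 library. Depth limits genes with few UMIs, and pooled mice hide the variation between animals.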

Other observations

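Of 19 genes of the circadian clock, a list added after the values were seen, 8 reached 20 CPM, with 1 higher and 2 lower by 2-fold, beside 2.86% and 1.61% of all genes. The other 5 (Clock, Per1, Rora, Arntl and Bhlhe40) were within 2-fold. Nr1d1 and Nr1d2, the REV-ERB repressors of the clock, stood at 30.4 and 26.3 CPM in uninjured HSCs and were 2.73 and 2.40 times lower at 6 weeks, and Nfil3, a bZIP repressor under clock control, at 7.70 and 35.1 CPM. In the PF pair Nr1d1 went the other way, from 2.08 to 47.3 CPM, as did Nr1d2 (2.43 to 16.8 CPM). Dbp, a clock output gene, was higher in both pairs, at 4.12 and 6.51 CPM in HSCs and 11.3 and 59.8 CPM in the PF pair. The labels give no time of day for the isolations, and its part in these values was not tested.

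Ctla2a, a cysteine protease inhibitor named after its values were seen, was also concentrated. At 6 weeks 2 cells held over 50% of its 1591 UMIs, and 1 cell held 631. The 21 cells with 10 or more Saa3 UMIs held 84.7%, but only 13 of the 21 had a Ctla2a UMI.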
